A study of Mus musculus with 9 samples.

Results

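The nuclear lamina is a meshwork of intermediate filament proteins that lines the inner nuclear membrane. It is built from A-type and B-type lamins, and proteins of the inner nuclear membrane bind both the lamins and chromatin. Heterochromatin that carries methylation of lysine 9 of histone H3 (H3K9) is commonly found against this layer, and the lamina, the membrane proteins and a small DNA-binding bridge protein are known tethers of such chromatin in many cell types. The transcripts of 10 genes of this layer were followed here in mouse embryonic fibroblasts (MEFs) without one or the other pair of H3K9 methyltransferases. They are Lmna, Lmnb1 and Lmnb2 for the lamins, Lbr, Emd, Tmpo and Lemd3 for membrane and chromatin-binding proteins, Sun1 and Sun2 for the bridge to the cytoskeleton, and Banf1 for the DNA-binding bridge. They are defined by gene name alone, and all 10 were found among 47937 genes of the count table and passed the filter that left 15540 genes for testing.

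Total RNA of 9 MEF cultures was sequenced, 3 of each genotype. WT cells, labelled wild type, are in the study an Eset1-conditional MEF line (E1c) in which tamoxifen can induce the deletion, and the labels name no such treatment. S1S2 cells carry, in addition, CRISPR/Cas9 disruptions of Suv39h1 and Suv39h2, and G9Gl cells carry disruptions of G9a and Glp, whose gene symbols are Ehmt2 and Ehmt1. By these methods all 9 cultures share the conditional Eset1 allele. After the disruptions, the methods report, a construct with inducible Cre and puromycin resistance was added again, and the lines were kept in puromycin. Whether WT cells also received it is not stated, so it may differ along with genotype. Per the methods of the study, a clone was kept where western blotting no longer showed the proteins aimed at, and each line was sequenced in 3 biological replicates, so each mutant is taken here as a single clone, and genotype and clone cannot be told apart. It was assumed that those methods also hold for these libraries.

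The libraries held between about 21319800 (S1S2 replicate 3) and 32157600 (WT replicate 1) gene counts, and the lowest mean count of the 10 genes was 1424, so counting error was small for each of them. Suv39h1 mRNA fell by 1.36 on the log2 scale in S1S2, and Ehmt2 and Ehmt1 fell by 1.20 and 1.04 in G9Gl (adjusted p = 2.62e-12, 9.16e-12 and 2.24e-12). Suv39h2 was instead higher in S1S2 by 0.70 (adjusted p = 3.01e-08). A count over a whole gene does not show whether its reading frame is intact, so Suv39h2 does not check the label, and S1S2 below means the libraries labelled so. All 9 fibroblast markers were detected, and their summed level was 9862 to 11364 CPM (the counts-per-million scale) in WT, 7404 to 7470 in S1S2 and 7799 to 8658 in G9Gl. At an adjusted p of at most 0.01, 1 of these 9 markers was higher and 7 were lower in S1S2, and 2 were higher and 6 lower in G9Gl. Of all genes tested, 20.3% were higher and 17.6% lower in S1S2, and 19% and 16% in G9Gl. Of the markers called, 5 passed 2-fold in S1S2 and 3 in G9Gl, beside 9% and 10.2% of all genes. In S1S2, Col3a1, Col1a2 and Pdgfra had -3.01, -2.60 and -2.04, and Vim was the higher one at 0.72. In G9Gl, Pdgfra and Pdgfrb had -1.85 and -1.34, and Thy1 had 2.94. Markers of epithelial, endothelial and blood cells were scarce, but some moved with genotype. The 4 epithelial markers summed to 9 to 17 counts in WT, 106 to 128 in S1S2 and 9 to 11 in G9Gl. Krt8 made up most of the S1S2 sum, at 4.68 CPM beside 0.139 in WT (adjusted p = 1.91e-10). The 3 endothelial markers summed to 4 to 6 counts in WT, 33 to 45 in S1S2 and 18 to 54 in G9Gl, with Kdr higher in S1S2 (1.22 CPM beside 0.0215 in WT, adjusted p = 8.65e-07) and Cdh5 higher in G9Gl (1.01 CPM, adjusted p = 4.26e-06). The 3 blood markers summed to at most 12 counts. Krt18 was at 0 in every WT and G9Gl library, Cdh5 at 0 in every WT library and Adgre1 at 0 in all 9. Of 3 neural markers, Sox2 had at most 1 count in a library. Tubb3 was not scarce, at 24.9 CPM in WT and 39.1 in S1S2, and was higher in S1S2 by 0.65 (adjusted p = 1.89e-05). Map2, at 0.814 CPM in WT and 0.244 in S1S2, was lower there by -1.73 (adjusted p = 0.00561). The summed neural level, mostly Tubb3, was 24.9 to 27.0 CPM in WT, 37.8 to 42.4 in S1S2 and 18.5 to 26.5 in G9Gl. The part of these marker differences in the results below was not tested, and in bulk RNA fewer cells of a type and less RNA per cell cannot be told apart.

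Set against WT, S1S2 cells had higher Lmna, Sun1, Sun2 and Banf1 and lower Lmnb2, Lbr and Tmpo. With the median of each chromosome removed, the S1S2 calls of Lmna, Sun1 and Sun2 held and those of Banf1, Lmnb2, Lbr and Tmpo did not (adjusted p = 0.313, 0.0269, 0.673 and 0.162). G9Gl cells had lower Lbr and higher Emd, Sun1 and Sun2. These G9Gl calls held with chromosome medians removed (adjusted p of at most 0.00528). Lbr at -0.55 lay among 40 neighbouring genes with a median of -0.41, so much of its fall was shared with them. Each of the differences named was below 2-fold. In the text, higher and lower stand for an adjusted p of at most 0.01 in a fit over all 15540 genes, and CPM is scaled for library composition. Differences are log2 fold changes with their standard error (SE). Both mutants were set against the same 3 WT libraries, so the comparisons with WT are not independent of each other.

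Of the 10 genes, 4 were higher, 3 lower and 3 not past the threshold in S1S2 against WT, and with chromosome medians removed 3 were higher and 0 lower. Across all genes tested, 20.3% were higher and 17.6% lower in that comparison. Well counted genes pass more easily, and among the 4541 genes with a mean count at least as high as the lowest of the 10, 26.6% were higher and 22.6% lower. In G9Gl against WT, 3 of the 10 were higher, 1 was lower and 6 were not past the threshold, beside 19% higher and 16% lower of all genes, and 21.3% and 22.1% of the well counted ones. Without WT replicate 2, WT replicate 3 or G9Gl replicate 2, the number of lower genes in G9Gl was 2. In G9Gl against S1S2, 1 was higher, 5 were lower and 4 were not past the threshold, beside 21.6% and 21.1% of all genes and 23% and 28.2% of the well counted ones. Without G9Gl replicate 2, 3 of the 10 were lower in that comparison. With 10 genes, each gene is 10% of the set, and the counts are given as a description from which nothing particular to the 10 is read.

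No member reached the 2-fold limit that the study uses in any of the 3 comparisons, and the largest value was -0.55. Of all genes, 9% passed both the test and 2-fold in S1S2 against WT, 10.2% in G9Gl against WT and 13.1% between the mutants, but of the well counted genes only 2.2%, 1.74% and 2.75% did, so that 0 of 10 is near that background. The 3 libraries of both genotypes did not overlap for 10 of 10 genes in S1S2 against WT, for 6 of 10 in G9Gl against WT and for 8 of 10 between the mutants. The same held for 56%, 52.8% and 60.8% of all genes, and for 67%, 60.3% and 70.5% of the well counted ones. The median absolute log2 fold change of the 10 was 0.27 in S1S2 and 0.13 in G9Gl against WT. It was 0.25 and 0.22 over all genes tested, and 0.16 and 0.14 over the well counted ones. The median signed value was 0.14 in S1S2 and -0.021 in G9Gl, beside -0.0032 and -0.0067 over all genes.

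**Figure D1:**
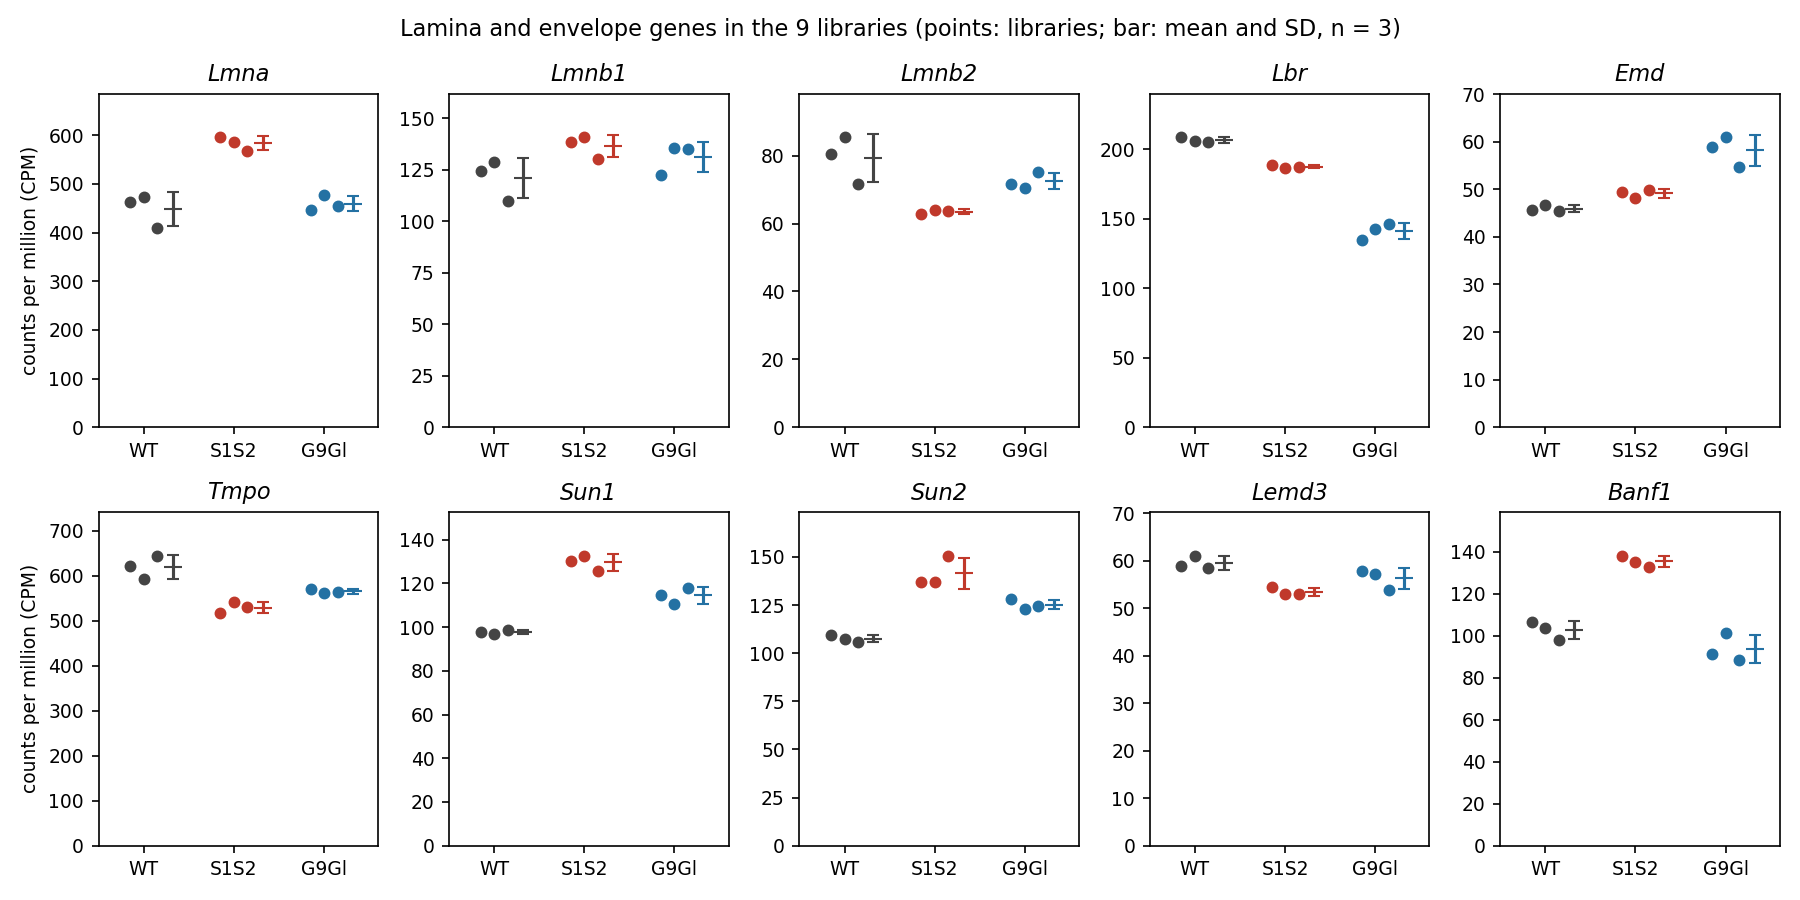
Level of each of the 10 genes in each of the 9 libraries, in CPM scaled for library composition, on axes that start at 0, with points for libraries and bars for mean and SD of 3. The S1S2 points of Lmna, Sun1, Sun2 and Banf1 lie above all WT points, and the G9Gl points of Lbr lie below all others.

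Lmna, which encodes lamins A and C by alternative splicing, was read at 462, 473 and 409 CPM in the 3 WT libraries, at 596, 586 and 569 CPM in S1S2 and at 447, 476 and 455 CPM in G9Gl. The S1S2 libraries all stood above the WT libraries, while the G9Gl libraries overlapped the upper part of the WT range. The difference was 0.38 (SE 0.051, adjusted p = 8.09e-06) in S1S2 against WT, a level 1.30 times as high. In G9Gl against WT it was 0.036 (95% interval -0.071 to 0.14, adjusted p = 0.592). The direct comparison showed Lmna at -0.34 in G9Gl against S1S2, which was lower (adjusted p = 1.86e-05).

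The B-type lamins, which stay bound to the membrane through a farnesyl group, differed in their values. Lmnb1 was read at 124, 129 and 110.1 CPM in WT, at 139, 141 and 130.4 CPM in S1S2 and at 123, 136 and 135 CPM in G9Gl. Every S1S2 library was above every WT library, yet the difference of 0.18 (95% interval 0.053 to 0.30) did not pass the threshold (adjusted p = 0.0183). It passed without WT replicate 2 (0.22, adjusted p = 0.00536) and with no filter on low counts (adjusted p = 0.00824), and it was 0.11 without WT replicate 3. The value for G9Gl against WT was 0.12 (adjusted p = 0.111), and that between the mutants was -0.059 (adjusted p = 0.414). With 1 library left out, these values ranged from 0.053 to 0.16 and from -0.093 to -0.013, and none was called.

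Lmnb2 stood at 80.6, 85.5 and 71.7 CPM in WT, at 62.9, 64.1 and 63.7 CPM in S1S2 and at 71.8, 70.5 and 75.1 CPM in G9Gl. The S1S2 libraries were close together and all below WT, and G9Gl overlapped WT. Lmnb2 was lower in S1S2 by -0.32 (SE 0.058, adjusted p = 1.88e-04), and the value in G9Gl against WT was -0.13 (adjusted p = 0.0714). In G9Gl against S1S2 it was 0.19 (adjusted p = 0.0107), just outside the threshold. That value passed under DESeq2 and several other settings, and with chromosome medians removed it was 0.0060 (adjusted p = 0.937), beside a chromosome median of 0.19. Without WT replicate 3 the value in G9Gl against WT was -0.20 and was called (adjusted p = 0.00264), while it was -0.073 without WT replicate 2.

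The balance of A-type to B-type lamin transcripts was also taken within each library, where it does not depend on scaling between libraries. Lmna counts divided by the sum of Lmnb1 and Lmnb2 counts gave 2.25, 2.21 and 2.25 in WT, 2.96, 2.86 and 2.93 in S1S2 and 2.30, 2.31 and 2.17 in G9Gl. The S1S2 ratios lay above all others, and the G9Gl ratios lay on both sides of the WT ratios. The mean ratio was 2.24 ± 0.024 (SD, n = 3) in WT, 2.92 ± 0.053 in S1S2 and 2.26 ± 0.081 in G9Gl. The log2 difference from WT was 0.38 in S1S2 (exact permutation test, two-sided p = 0.1, the smallest that 3 against 3 can give) and 0.013 in G9Gl (exact p = 0.7). Between the mutants it was -0.37 (exact permutation p = 0.1). Over the 6 ratio comparisons made, the adjusted p was 0.3 for the first and last of these and 1 for the G9Gl one. In the units of length-corrected counts the ratio was 2.18 in WT, 2.80 in S1S2 and 2.19 in G9Gl. The ratio is not free of shifts of whole chromosomes. In S1S2 against WT the chromosome medians were 0.10 for Lmna, -0.020 for Lmnb1 and -0.15 for Lmnb2. With these removed, Lmna, Lmnb1 and Lmnb2 had 0.28, 0.22 and -0.16, and the ratio was not taken on that scale.

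**Figure D2:**
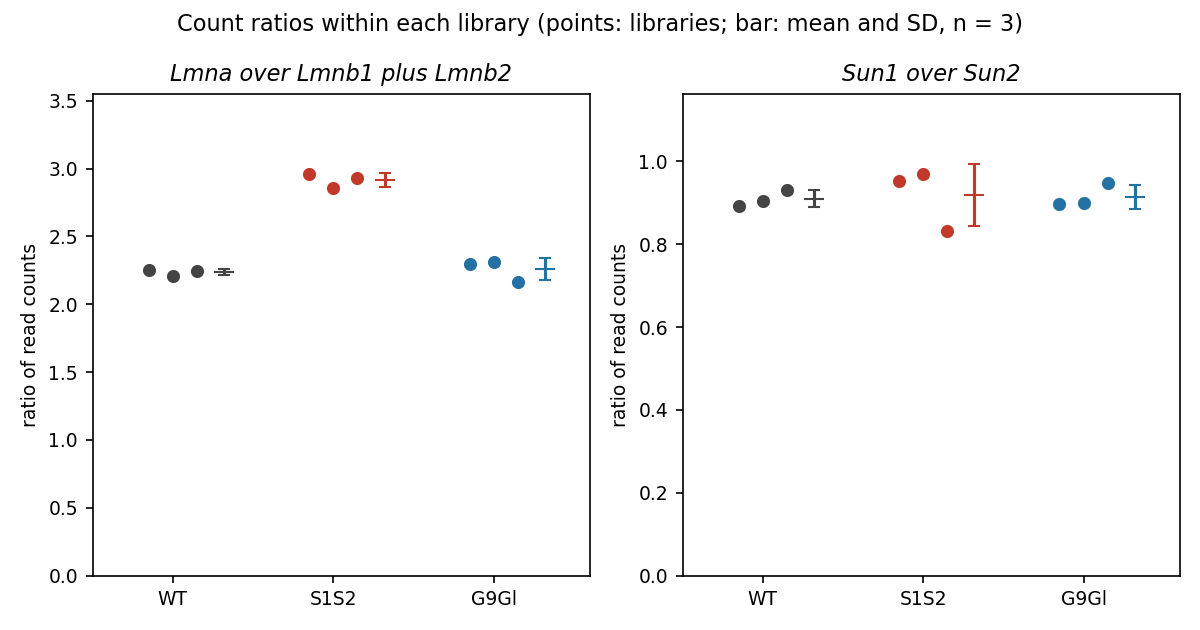
Ratio of read counts within each library, with Lmna over Lmnb1 plus Lmnb2 on the left and Sun1 over Sun2 on the right, on axes that start at 0, with points for libraries and bars for mean and SD of 3. The lamin ratio is 2.86 to 2.96 in the S1S2 libraries and 2.17 to 2.31 elsewhere, while the Sun1 to Sun2 ratio is 0.833 to 0.970 in all 9.

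Sun1 and Sun2 encode inner membrane proteins that reach across the perinuclear space to nesprins of the outer membrane and so form the LINC complex, which couples the nucleus to the cytoskeleton. Sun1 was read at 97.6, 97.0 and 98.7 CPM in WT, at 130.5, 133 and 126 CPM in S1S2 and at 115, 111 and 118 CPM in G9Gl. Sun2 was read at 109, 107 and 106 CPM in WT, at 137, 137 and 151 CPM in S1S2 and at 128, 123 and 125 CPM in G9Gl. For both genes the 3 groups were fully separated, with WT lowest, G9Gl between and S1S2 highest.

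In S1S2 against WT, Sun1 was higher by 0.41 (SE 0.042, adjusted p = 4.17e-07) and Sun2 by 0.40 (SE 0.045, adjusted p = 1.30e-06), levels 1.33 and 1.32 times those of WT. In G9Gl against WT, Sun1 was higher by 0.23 (adjusted p = 2.36e-04) and Sun2 by 0.22 (adjusted p = 5.99e-04). Both genes stayed higher under each of the 15 alternatives in both comparisons. Between the mutants the differences were -0.18 for Sun1 (adjusted p = 0.00158) and -0.18 for Sun2 (adjusted p = 0.00317). These last calls depended on single libraries. Sun1 was not past the threshold without S1S2 replicate 2 (adjusted p = 0.0166) or G9Gl replicate 2 (0.0111), and Sun2 was not without S1S2 replicate 3 (0.0246), G9Gl replicate 2 (0.0146) or G9Gl replicate 3 (0.0155).

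The ratio within the pair was also taken in each library. Sun1 counts divided by Sun2 counts gave 0.892, 0.905 and 0.932 in WT, 0.952, 0.970 and 0.833 in S1S2 and 0.896, 0.898 and 0.948 in G9Gl. The groups overlapped, and S1S2 replicate 3 held the lowest value of all 9. The log2 difference from WT was 0.010 in S1S2 and 0.0064 in G9Gl, and between the mutants it was -0.0040 (exact permutation p = 1, 0.8 and 0.9, all 1 after adjustment).

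Because both genes were higher in both mutants, the 250 bases upstream of each annotated start are shown, from RefSeq on GRCm38.p6. A promoter was given there for 9 of the 10 genes, as 14 windows, and none for Lmnb1. Sun1 starts on the plus strand of chromosome 5, with the window at chr5:139200387-139200636, and Sun2 starts on the minus strand of chromosome 15, with the window at chr15:79742537-79742786. Both are written 5′ to 3′ on the strand of the gene, ending at the base before the start. Capitals mark the letters CCAAT and GGGCGG on either strand (ATTGG and CCGCCC on the other one).
Sun1: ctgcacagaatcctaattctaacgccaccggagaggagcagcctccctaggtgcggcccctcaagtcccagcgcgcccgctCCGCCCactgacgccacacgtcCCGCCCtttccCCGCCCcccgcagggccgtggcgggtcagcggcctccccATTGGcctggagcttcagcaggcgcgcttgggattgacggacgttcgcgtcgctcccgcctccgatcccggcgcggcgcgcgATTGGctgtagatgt
Sun2: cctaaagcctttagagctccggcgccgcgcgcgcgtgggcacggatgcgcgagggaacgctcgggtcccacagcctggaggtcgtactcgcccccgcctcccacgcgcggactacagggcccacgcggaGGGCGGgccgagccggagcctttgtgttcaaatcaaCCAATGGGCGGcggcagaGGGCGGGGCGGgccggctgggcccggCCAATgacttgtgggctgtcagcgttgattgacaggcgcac
The Sun1 window held 30 CpG, 70.0% G and C, 2 matches to CCAAT and 3 to GGGCGG. The Sun2 window held 31 CpG, 70.8% G and C, 2 matches to CCAAT and 4 to GGGCGG, of which the last pair share a base. The median over all 32851 windows of this length was 6 CpG and 52.4% G and C. CCAAT was found in 33.8% of all windows, GGGCGG in 32.7% and both in 11% of them. Of the 14 windows of the 9 genes, 9 held CCAAT, 10 held GGGCGG and 7 held both, and these 9 genes include ones called higher, lower and neither. The background windows were taken whether or not their genes were counted in these cells. Nothing particular to Sun1, Sun2 or the 9 genes is therefore read from these shares. A match is a description of the letters and not of a bound factor.

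Lbr encodes the lamin B receptor, an inner membrane protein that binds B-type lamins and heterochromatin protein HP1 and also has a sterol reductase domain. It was read at 209, 206 and 205 CPM in WT, at 189, 186 and 187 CPM in S1S2 and at 135, 143 and 146 CPM in G9Gl. The groups did not overlap, and the G9Gl libraries stood far below the rest. Lbr was lower in G9Gl against WT by -0.55 (SE 0.040, adjusted p = 4.49e-09), a level 0.684 times that of WT, which was the largest fall among the 10 genes against WT. It was also lower in G9Gl than in S1S2 by -0.41 (SE 0.041, adjusted p = 1.75e-07). In S1S2 against WT the difference was -0.14 (SE 0.040, adjusted p = 0.00776). That smaller call did not hold without WT replicate 1 (adjusted p = 0.0286), WT replicate 2 (0.0136), S1S2 replicate 1 (0.0239), S1S2 replicate 2 (0.0301) or S1S2 replicate 3 (0.0229), although the difference itself stayed between -0.145 and -0.139 without these libraries. Of the 75-base words of the Lbr transcripts, 7.45% also occur in Dnah14, which overlaps it on the other strand, so reads there cannot be told apart unless strand was used in counting.

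Emd, Tmpo and Lemd3 encode proteins with a LEM domain, the fold that binds the bridge protein made from Banf1. Emd, which encodes emerin, was read at 45.6, 46.8 and 45.5 CPM in WT, at 49.4, 48.1 and 49.8 CPM in S1S2 and at 58.8, 61.0 and 54.7 CPM in G9Gl. The 3 groups were separate, in the order WT, S1S2, G9Gl. Emd was higher in G9Gl by 0.34 against WT (SE 0.050, adjusted p = 2.60e-05) and by 0.24 against S1S2 (SE 0.051, adjusted p = 6.19e-04). In S1S2 against WT the value was 0.095 (adjusted p = 0.139). Of the 75-base words of Emd, 14.0% are shared with the overlapping model Gm14686 on the same strand, and how such reads were assigned is not known.

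Tmpo encodes the LAP2 proteins, some of which sit in the membrane and some in the nucleoplasm. It was read at 622, 593 and 645 CPM in WT, at 516, 542 and 530.1 CPM in S1S2 and at 572, 561 and 563 CPM in G9Gl. WT was highest and S1S2 lowest, with no overlap between any pair of groups. Tmpo was lower in S1S2 by -0.23 (SE 0.042, adjusted p = 2.10e-04). The value in G9Gl against WT was -0.13 (SE 0.042, adjusted p = 0.0141), and that in G9Gl against S1S2 was 0.095 (adjusted p = 0.0657). Without WT replicate 2, Tmpo was called lower in G9Gl against WT (-0.17, adjusted p = 0.00408). These are counts of the whole gene, and the LAP2 isoforms were not separated.

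Lemd3 encodes MAN1, an inner membrane protein known to bind receptor-regulated Smads. It was read at 58.8, 61.1 and 58.5 CPM in WT, at 54.4, 53.0 and 52.9 CPM in S1S2 and at 57.8, 57.3 and 53.8 CPM in G9Gl. S1S2 and G9Gl both lay under WT and overlapped each other. It passed the threshold in no comparison, with -0.15 in S1S2 against WT (95% interval -0.26 to -0.053, adjusted p = 0.0129), -0.079 in G9Gl against WT (adjusted p = 0.185) and 0.075 between the mutants (adjusted p = 0.207). With 1 library left out, the last 2 values ranged from -0.099 to -0.046 and from 0.056 to 0.11, and none was called. The S1S2 value passed without a composition factor (adjusted p = 0.00523) and in genes with at least 10 counts in every library (0.00880), and with chromosome medians removed it was -0.0019 (adjusted p = 0.980), beside a chromosome median of -0.15.

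Banf1 encodes barrier-to-autointegration factor, a small protein that binds DNA and LEM-domain proteins at once. It was read at 106, 104 and 97.8 CPM in WT, at 138, 135 and 133 CPM in S1S2 and at 91.4, 101 and 88.5 CPM in G9Gl. S1S2 stood above both other groups, and G9Gl overlapped the lower end of WT. Banf1 was higher in S1S2 against WT by 0.40 (SE 0.051, adjusted p = 5.40e-06) and lower in G9Gl than in S1S2 by -0.53 (SE 0.052, adjusted p = 1.33e-07). In G9Gl against WT the value was -0.13 (adjusted p = 0.0480), and without G9Gl replicate 2 it was -0.19 and called lower (adjusted p = 0.00612). Of its 75-base words, 23.1% occur also in Eif1ad on the other strand, the highest share among the 10 genes.

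**Figure D3:**
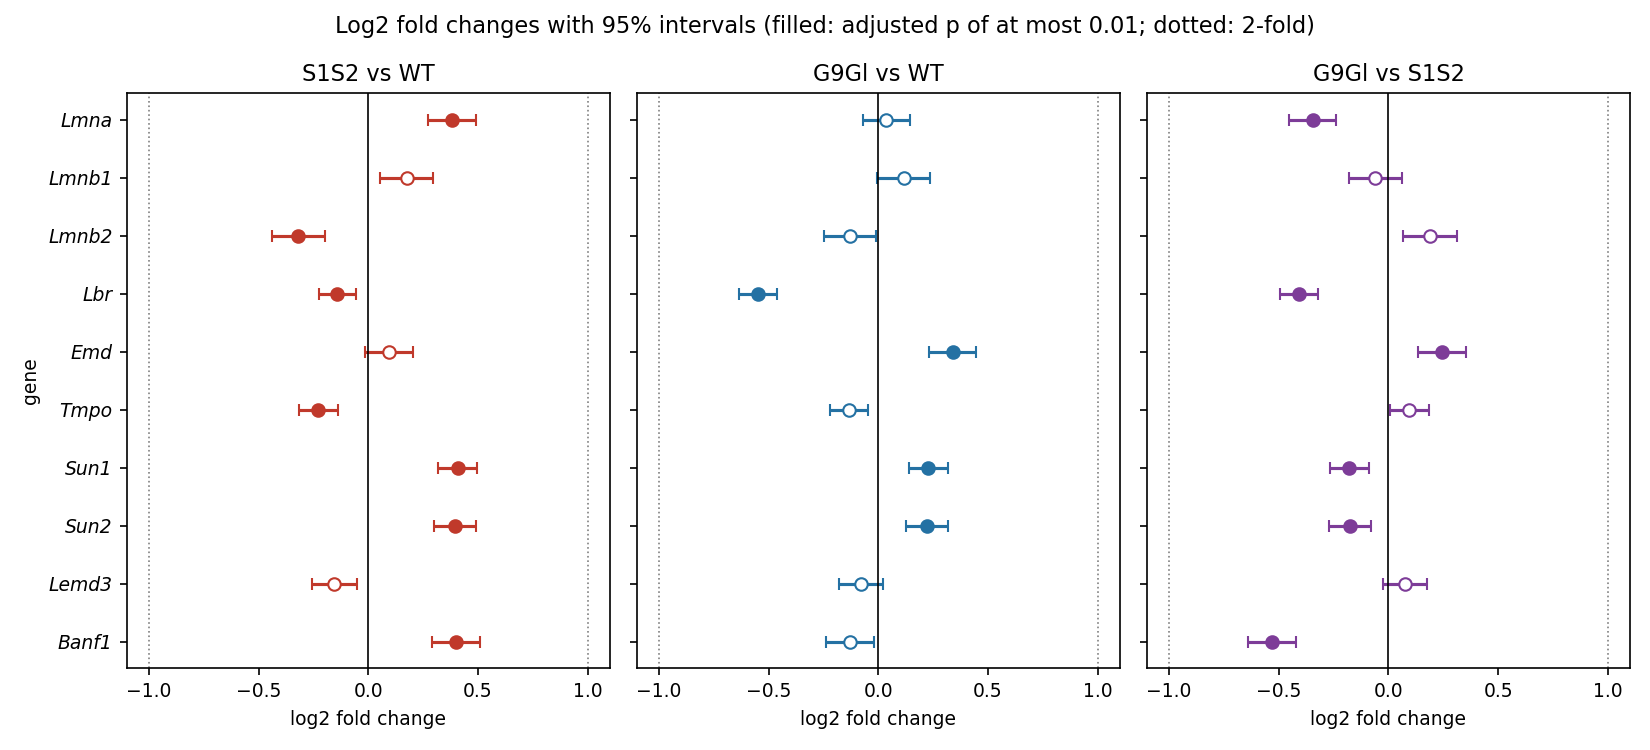
Log2 fold change of each of the 10 genes with its 95% interval in the 3 comparisons, filled where the adjusted p was at most 0.01, with dotted lines at a 2-fold change. Sun1 and Sun2 have intervals above 0 in both mutants, Lmna and Banf1 are filled on the right only in S1S2, and no interval reaches the dotted lines.

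The median of some chromosomes differed from 0, unevenly along their length, so each gene was set beside the tested genes of its chromosome and beside its 40 nearest tested genes, 20 on each side. On chromosome 19, which holds Banf1 (chr19:5364638-5367168, minus strand), the median of 487 tested genes was 0.34 in S1S2 against WT, with 279 genes higher and 22 lower. The neighbours of Banf1 had a median of 0.34, and 33 of the 40 were above 0. Banf1 at 0.40 was thus 0.057 above its neighbours. In G9Gl against S1S2 the neighbours had a median of -0.48, and Banf1 was 0.051 below them. After the median of each chromosome was removed from each library, the value of Banf1 was 0.065 in S1S2 against WT (limma, adjusted p = 0.313) and -0.025 between the mutants (adjusted p = 0.707).

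Lbr lies on chromosome 1 (chr1:181815335-181843046, minus strand), where the median of 1069 genes was -0.26 in G9Gl against WT, with 129 genes higher and 414 lower. Its 40 neighbours had a median of -0.41, 37 of them were below 0, and 26 were lower by the test. Lbr at -0.55 was 0.14 below them. In G9Gl against S1S2 the chromosome median was -0.14 and the neighbours had a median of -0.30. Of these 40 neighbours 39 were below 0 and 23 were lower, and Lbr at -0.41 was 0.10 below their median. With chromosome medians removed, Lbr was still lower in G9Gl, by -0.30 against WT (adjusted p = 1.30e-05) and by -0.28 against S1S2 (adjusted p = 2.05e-05). In S1S2 against WT its value was then -0.021 (adjusted p = 0.673).

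Lmnb2, Tmpo and Lemd3 share chromosome 10, at chr10:80901203-80918245, chr10:91147571-91181315 and chr10:120923413-120979332, each on the minus strand. The median of the 691 tested genes of that chromosome was -0.15 in S1S2 against WT, with 87 genes higher and 246 lower. The neighbours of Tmpo had a median of -0.28 and those of Lmnb2 -0.087. With chromosome medians removed, neither Lmnb2 (-0.16, adjusted p = 0.0269) nor Tmpo (-0.075, adjusted p = 0.162) was past the threshold in S1S2, so that none of the 10 genes was lower there. In G9Gl against WT, Tmpo was then lower by -0.16 (adjusted p = 0.00598), beside a chromosome median of 0.036.

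The remaining genes lie on other chromosomes. The 40 neighbours of Lmna (chr3:88480147-88509956, minus strand) had a median of -0.055 in S1S2 against WT, and those of Sun2 (chr15:79724070-79742536, minus strand) had -0.061. Those of Sun1 (chr5:139200637-139249840, plus strand) were at 0.20, which is 0.21 below the gene itself. In G9Gl against WT the neighbours of Sun1 had 0.099 and those of Sun2 -0.025, beside 0.23 and 0.22 for the genes. With chromosome medians removed, Lmna, Sun1 and Sun2 were higher in S1S2 by 0.28, 0.36 and 0.45, and Sun1, Sun2 and Emd were higher in G9Gl by 0.19, 0.17 and 0.29. The adjusted p of these 6 values was at most 0.00528. Emd lies at chrX:74254687-74261548 on the plus strand, and its neighbours had a median of 0.11 in G9Gl. Lmnb1 lies at chr18:56707813-56753424 on the plus strand, and its neighbours had -0.020 in S1S2 and 0.13 in G9Gl. What moved these medians, and its part in the values of the genes on them, was not tested. Coordinates are those of GENCODE M21 on GRCm38.

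**Figure D4:**
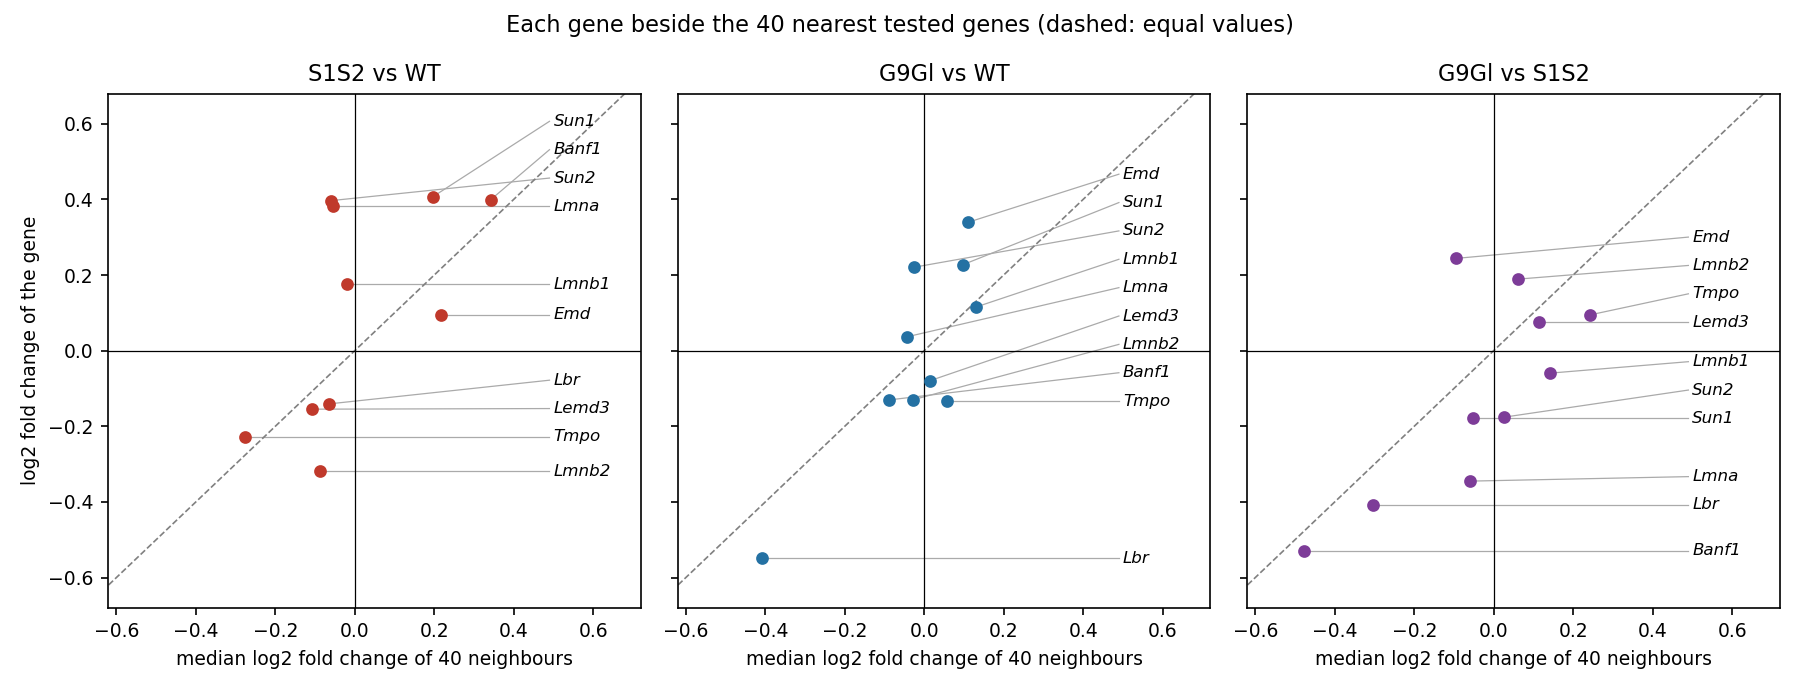
Log2 fold change of each gene (vertical) against the median log2 fold change of its 40 nearest tested genes (horizontal) in the 3 comparisons, with the dashed line where both are equal. Banf1 lies close to the dashed line in all 3 panels, Lbr lies 0.14 below it in G9Gl against WT, and Lmna and Sun2 lie far above it in S1S2 against WT.

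Levels of different genes were compared per kilobase of the longest coding transcript, as CPM per kb. In WT the order was Tmpo at 164 ± 7.0 (SD, n = 3), Lmna at 142 ± 10.9, Banf1 at 81.3 ± 3.49, Lbr at 58.9 ± 0.561 and Lmnb1 at 42.6 ± 3.44. Emd at 28.8 ± 0.444 and Sun2 at 28.3 ± 0.451 followed and overlapped each other, as did Sun1 at 23.6 ± 0.205 and Lmnb2 at 22.5 ± 1.98. Lemd3 was lowest at 12.5 ± 0.292 CPM per kb. The order was largely kept in the mutants, with a few exchanges. In S1S2, Lmna was first at 185 ± 4.47 and Tmpo second at 140.3 ± 3.34, and their libraries did not overlap. Sun1 and Emd, at 31.3 and 30.8, overlapped there. In G9Gl, Tmpo at 149.9 ± 1.48 and Lmna at 146 ± 4.80 overlapped, and Lmnb1 at 46.1 ± 2.58 stood above Lbr at 40.3 ± 1.68 without overlap. Total RNA libraries also hold unspliced transcripts, so a level per kb of mature transcript is approximate.

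The further genes of the envelope were read from lists of known partners. Their counts stand beside 20.3% higher and 17.6% lower of all genes in S1S2, and 19% and 16% in G9Gl. Of 21 other lamina and inner membrane partners, 19 were tested, with Mlip and Plpp7 removed by the filter. In S1S2 against WT, 2 were higher (Tmem120a and Tmem43) and 2 lower (Narf and Tor1aip2), and in G9Gl 2 were higher (Lemd2 and Nrm) and 3 lower (Ankle1, Narf and Vrk1). The median log2 fold change was -0.016 in S1S2 and 0.0036 in G9Gl. Tmem120a, a nuclear envelope transmembrane gene known from fat cells, was read at 15.2, 18.1 and 13.2 CPM in WT and at 32.2, 32.6 and 30.1 CPM in S1S2. No other listed envelope gene passed both the test and 2-fold in a mutant against WT, and its value was 1.03 (SE 0.088, adjusted p = 3.50e-08). Ankle1, a LEM-domain nuclease, was read at 19.7, 18.6 and 13.9 CPM in WT and at 10.9, 12.6 and 11.1 CPM in G9Gl, and it was lower by -0.59 (SE 0.11, adjusted p = 2.23e-04).

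The list called LINC partners held the genes of the nesprins that Sun1 and Sun2 bind, further SUN genes, and Tmem109, which is of neither kind. Its genes were called in both directions. Of the 8 genes 6 were tested, and Sun3 and Sun5, known from testis, had at most 7 counts in any library. In S1S2, Syne2, Syne3 and Tmem109 were higher and Syne1 was lower, and in G9Gl Syne2 was higher and Syne3 lower. Syne1, the gene of nesprin 1, was read at 53.9, 54.9 and 64.3 CPM in WT and at 35.5, 36.4 and 37.4 CPM in S1S2. Its difference was -0.66 (SE 0.069, adjusted p = 4.40e-07). Syne2, the gene of nesprin 2, was higher by 0.19 in S1S2 and by 0.39 in G9Gl (adjusted p = 5.66e-04 and 2.51e-07). Syne3 stood at 0.37 in S1S2 and at -0.37 in G9Gl (adjusted p = 2.59e-04 and 3.07e-04). Syne4 was scarce, with 4 to 25 counts in WT and S1S2 libraries, and its value of -1.26 in S1S2 did not pass (adjusted p = 0.0105), though it did under 6 of the alternatives. Tmem109 lies on chromosome 19, and its 0.48 in S1S2 was 0.15 (adjusted p = 0.0747) with chromosome medians removed.

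Of 5 genes of the enzymes that process prenylated lamins, Rce1 alone was higher in S1S2. Its value was 0.48 (SE 0.071, adjusted p = 2.70e-05). Rce1 is also on chromosome 19, and with chromosome medians removed the value was 0.14 (adjusted p = 0.133). In G9Gl, Zmpste24, the protease that matures lamin A, was higher by 0.31 (adjusted p = 5.04e-05), Icmt was higher and Rce1 was lower.

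Of 28 nuclear pore genes 27 were tested, and 10 were lower and 2 higher (Nup93 and Rae1) in S1S2, beside 17.6% lower and 20.3% higher of all genes and 22.6% and 26.6% of the well counted ones. In G9Gl 5 were lower (Ahctf1, Nup58, Nup160, Seh1l and Tpr). The median was -0.078 in S1S2 and -0.014 in G9Gl. The largest value was that of Nup37, a subunit of the outer ring, at -0.44 in S1S2 (SE 0.052, adjusted p = 2.17e-06), and Nup107 of the same ring had -0.41 (adjusted p = 3.48e-07). Both lie on chromosome 10 and were lower by -0.28 and -0.25 with chromosome medians removed (adjusted p = 4.15e-04 and 1.21e-04). The rest of the 10 lower genes of S1S2 were not read on that scale, so how many stay lower is not known. Nup93 at 0.26 in S1S2 was 0.11 on that scale (adjusted p = 0.0219). Ahctf1, which starts pore assembly on chromatin, was lower in G9Gl by -0.30 (adjusted p = 6.12e-06). It lies on chromosome 1, and its value was -0.053 (adjusted p = 0.271) with chromosome medians removed.

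Of 9 genes of the ESCRT machinery that seals the envelope after mitosis, 4 were higher in S1S2 (Chmp2a, Chmp3, Ist1 and Vps4a). The median was 0.15. In G9Gl, Chmp2a and Chmp4b were higher and Vps4b was lower. Ist1 had the largest value, 0.33 in S1S2 (SE 0.044, adjusted p = 8.68e-06), which was 0.18 with chromosome medians removed (adjusted p = 0.00336), and Chmp2a reached 0.31 in G9Gl (adjusted p = 2.38e-05). Several lamina genes are expressed with the cell cycle, and so 14 proliferation genes were read beside them. In S1S2, 3 were higher (Mcm2, Mcm5 and Rrm2) and 2 lower (Bub1 and Top2a), with Rrm2 at 0.37 (adjusted p = 3.92e-06). In G9Gl 9 of the 14 were lower, beside 16% of all genes and 22.1% of the well counted ones, with a median of -0.17, and Mcm3 at -0.33 was lowest (adjusted p = 3.07e-06). Mcm3 is on chromosome 1 and had -0.087 (adjusted p = 0.0810) with chromosome medians removed. The summed level of the 14 genes was 4973 to 5357 CPM in WT, 5035 to 5160 in S1S2 and 4415 to 4655 in G9Gl, and its part in the lamina results was not tested.

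**Figure D5:**
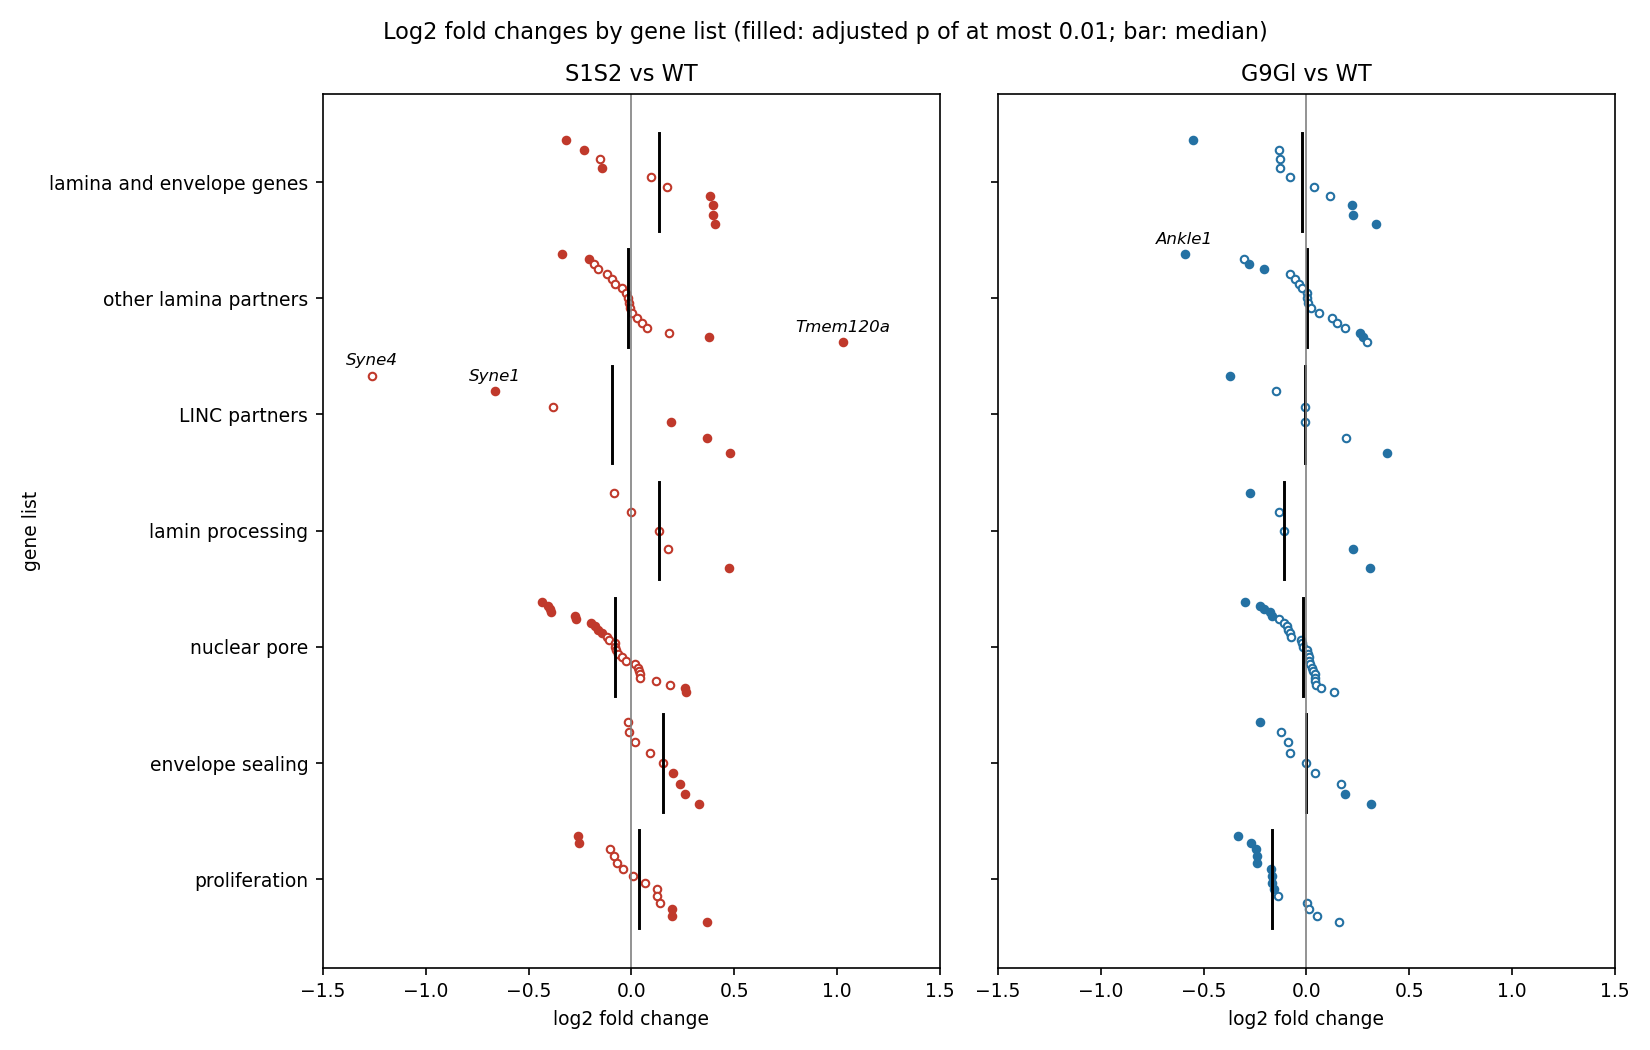
Log2 fold change of each tested gene of the 10 genes, the 5 envelope lists and the proliferation list in S1S2 (left) and G9Gl (right) against WT, filled where the adjusted p was at most 0.01, with a bar at the median of each list. The medians lie between -0.11 and 0.15 for the 10 genes and the envelope lists and at -0.17 for the proliferation list in G9Gl, and the named points are the 4 genes furthest from 0, with Syne4 open because it did not pass the test.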

How the data were processed

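RNA sequencing of 9 MEF libraries was analysed, 3 each of WT, S1S2 and G9Gl. Per the methods of the study, the authors made stranded total RNA libraries and ran cutadapt, STAR 2.5.2b (GRCm38) and TEtranscripts, which counts repeats next to genes. Version and build are also in the submitters' processing notes. The authors deposited unnormalized counts per gene. The annotation release and strand setting of the counting are not given in the sources used here. No molecular identifiers are mentioned, so a count is one of reads and not of molecules. The 10 genes, the gene lists and the tests were chosen with earlier results of these data known.

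Of 47937 genes, 47310 matched GENCODE M21 by identifier. The filterByExpr step left 15540 for a single quasi-likelihood fit in edgeR 4.0.16 (R 4.3.3) with TMM factors and a coefficient per genotype. P-values were adjusted by Benjamini-Hochberg over all genes, the threshold was 0.01, and SE and 95% intervals come from the same F test. The common coefficient of variation was 5.36%. The scripts were tested on simulated counts. Ratios were tested by exact two-sided permutation. Alternatives used DESeq2 1.42.0 and limma 3.58.1 (prior count of 2). From the lists, the text names those past the threshold and 1.5-fold against WT, or else the largest value (Tmem120a, Ankle1, Syne1, Rce1, Nup37, Ist1 and Rrm2), and all other list genes were named after their values were seen. No replicate pair was alike within counting noise (chi-square over its degrees of freedom, 2.68 to 25.6).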

Additional observations from a re-analysis of the deposited data

How the results depend on the processing

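Of 30 member values, 13 kept direction and side of the threshold under all alternatives, and of 25 values of other named genes 19 did. The 4 higher genes of S1S2 and the 3 higher genes of G9Gl against WT stayed between 3 and 5, and at 3. With chromosome medians removed, 0 genes were lower in S1S2, and Emd in S1S2 (-0.034), Banf1 in G9Gl against WT (0.040), Tmpo (-0.087) and Lemd3 (-0.11) in G9Gl against S1S2 reversed, none of them past the threshold. limma without that removal, added after seeing the data, changed none of these. The 1 lower gene of G9Gl against WT became 2 under DESeq2, without a composition factor or with chromosome medians removed, 3 at an adjusted p of 0.05, and 1 to 2 with a library left out. The 1 higher gene of G9Gl against S1S2 became 2 under DESeq2, with its size factors, without a composition factor, without a filter, with at least 10 counts in every library, in the fit of the compared libraries alone and at an adjusted p of 0.05. The 5 lower genes there became 3 to 5 with a library left out. Lmna in G9Gl against WT ranged from -0.024 to 0.077 with a library left out, and the lamin ratio from -0.0042 to 0.043. The Sun1 to Sun2 ratio ranged from -0.031 to 0.079 in S1S2, from -0.020 to 0.024 in G9Gl and from -0.073 to 0.037 between them. The cause of these changes was not tested.

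Same-numbered libraries correlated between -0.069 and 0.124 in their deviations from the group means, so the numbers were not treated as pairs. With the replicate number as a block, Lbr in S1S2 against WT was no longer past the threshold (-0.14, adjusted p = 0.0123), which left 2 lower genes, and no other call of the 10 genes changed. With 3 libraries a group, ratio tests cannot reach 0.05, and the smallest difference called among the 10 genes was 0.14 on the log2 scale.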
